A study of Mus musculus with 23 samples.

Results

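The comparison set the prefrontal cortex of mice at postnatal week 4 against that of mice at postnatal week 2. Samples were chosen by their titles: all 4 arrays of week 4, which were in batch 1, and the 4 arrays of week 2 in batch 1, together 8 of the 23 arrays of the series. All animals were male, wild-type C57BL/6 mice bred in the submitters' colony, with no treatment, and each array held the RNA of 1 independent animal. The tissue was cut coronally behind the frontal pole, and RNA was hybridised to Affymetrix MOE430A arrays, on which a gene is measured by 1 or more probe sets. Values are log2 units of the deposited GCRMA normalisation, and the arrays are given below in the order of animals 1, 2, 3 and 6 at week 4 and animals 3, 4, 5 and 6 at week 2. The series asks how gene expression in this cortex changes after birth.

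Between these ages a mouse opens its eyes, is weaned from fat-rich milk to a carbohydrate diet, and its cortex passes from axon and dendrite growth to synapse refinement and myelination. Immature neurons hold large amounts of tubulins, growth cone proteins and collapsin response mediators. Oligodendrocyte precursors give rise to oligodendrocytes, which wrap axons in myelin, and the suckling brain burns ketone bodies beside glucose.

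Several arrays stood apart. Week 4 animal 2 held the hormone genes of the pituitary gland: growth hormone Gh was at 15.48, prolactin Prl at 13.22, Pomc at 12.71 and the glycoprotein hormone subunit Cga at 11.40, while the highest values on the other 7 arrays were 7.31, 5.04, 3.73 and 2.43. Week 2 animal 6 had 7.32 for Ttr, the transthyretin of the choroid plexus, against 3.01 to 4.10 on the other week 2 arrays. Its mean over 11 measured striatal genes was 8.72, against 9.72 to 9.88 in the rest of week 2, with week 4 animals at 9.18 to 9.89, and Drd2 and Penk were at 5.94 and 9.80. The measure of RNA integrity, the beta-actin 3 prime minus 5 prime difference, was 2.25, 2.27, 2.28 and 1.50 at week 4, against 1.39, 1.51, 1.37 and 1.42 at week 2. It averaged 2.07 ± 0.38 at week 4 and 1.42 ± 0.06 at week 2 (SD, n = 4 each), with an exact two-sided permutation p of 0.0571 (adjusted over 2 controls 0.114), where 4 against 4 arrays can reach 0.0286. For Gapdh the same difference averaged 0.19 ± 0.14 at week 4 and 0.18 ± 0.07 at week 2 (exact permutation p = 0.886). All 4 week 4 arrays were scanned on 1 day, and no week 2 array of batch 1 was scanned on it. The only other array of that day was 1 of week 5 in batch 2. Age and scan day can therefore be separated only through arrays of other ages. Xist was below 4 on all 8 arrays, and the male gene Eif2s3y lay between 7.85 and 8.19 at week 4 and between 7.93 and 8.38 at week 2.

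**Figure D1:**
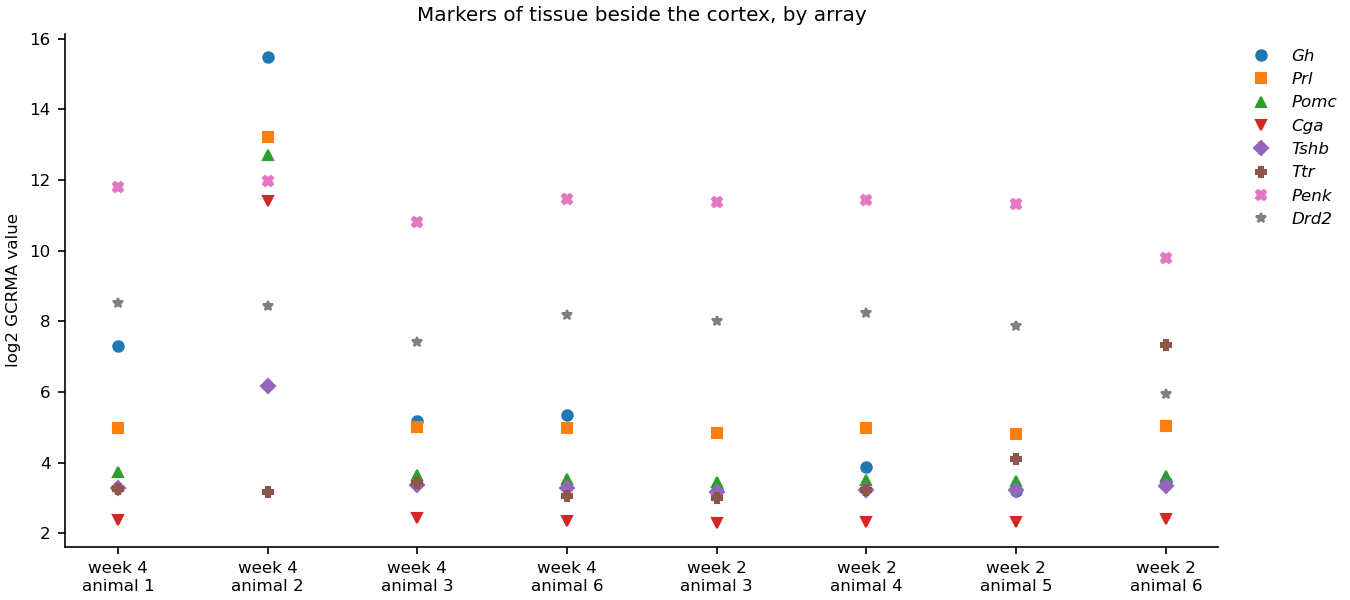
Log2 values (vertical axis) of 5 pituitary hormone genes, the choroid plexus gene Ttr and the striatal genes Penk and Drd2 on each of the 8 arrays (horizontal axis), week 4 on the left. Gh, Prl, Pomc and Cga stand at 11.40 to 15.48 in week 4 animal 2, and Ttr at 7.32 in week 2 animal 6.

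Of 16103 probe sets tested, 1962 (12.2%) differed between the ages at an adjusted p under 0.05. At week 4, 811 (5.04%) were higher and 1151 (7.15%) lower, and at least 2-fold changes numbered 32 higher and 159 lower. Counted by gene, each through the probe set with the highest mean, 1040 of 9198 genes (11.3%) were called, 516 (5.61%) higher and 524 (5.7%) lower, with a median log2 difference of 0.03 over all genes. The split between directions moved with the scaling: 41.3% of called probe sets were higher as deposited, 64% after centring each array on its median, and 54.5% after a second quantile normalisation. With scan day as a random block 488 probe sets were called, and with the actin difference as a covariate 328. The array of week 4 animal 2, left out, lowered the count to 1150. With only week 4 animal 6, whose actin difference was near those of week 2, 121 were called. That fit sets 1 array against 4, and its lone array is assumed to vary like the arrays of the other groups. The 4 week 4 arrays did not overlap the 4 week 2 arrays in 2790 probe sets (17.3%).

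The large falls differed in size among the week 4 animals. Over the 159 probe sets called lower by at least 2-fold, the median difference from the week 2 mean was -1.52 in animals 1, 2 and 3 together and -0.49 in animal 6, and animal 6 had the smaller fall in 89.9% of them. Its difference from week 2 was the smaller in size in 67% of all probe sets called lower and in 54.9% of all tested. The 159 were chosen on a mean in which animals 1, 2 and 3 weigh most, so their share is a description. Over the 32 called higher by at least 2-fold these medians were 1.21 in animals 1, 2 and 3 and 1.34 in animal 6. The part of RNA integrity in this was not tested. On 4 arrays outside the comparison, 2 of week 5 and 2 of week 2 in batch 2, 93.1% of the 1962 called probe sets had the same sign of difference, against 68.5% of all tested probe sets. These are animals of another age, and 1 of the week 5 arrays was scanned on the day of the week 4 arrays, so the share is a description. Without that array, with the others all scanned on 1 day, it was 92.4%, against 68.8% of all tested.

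**Figure D2:**
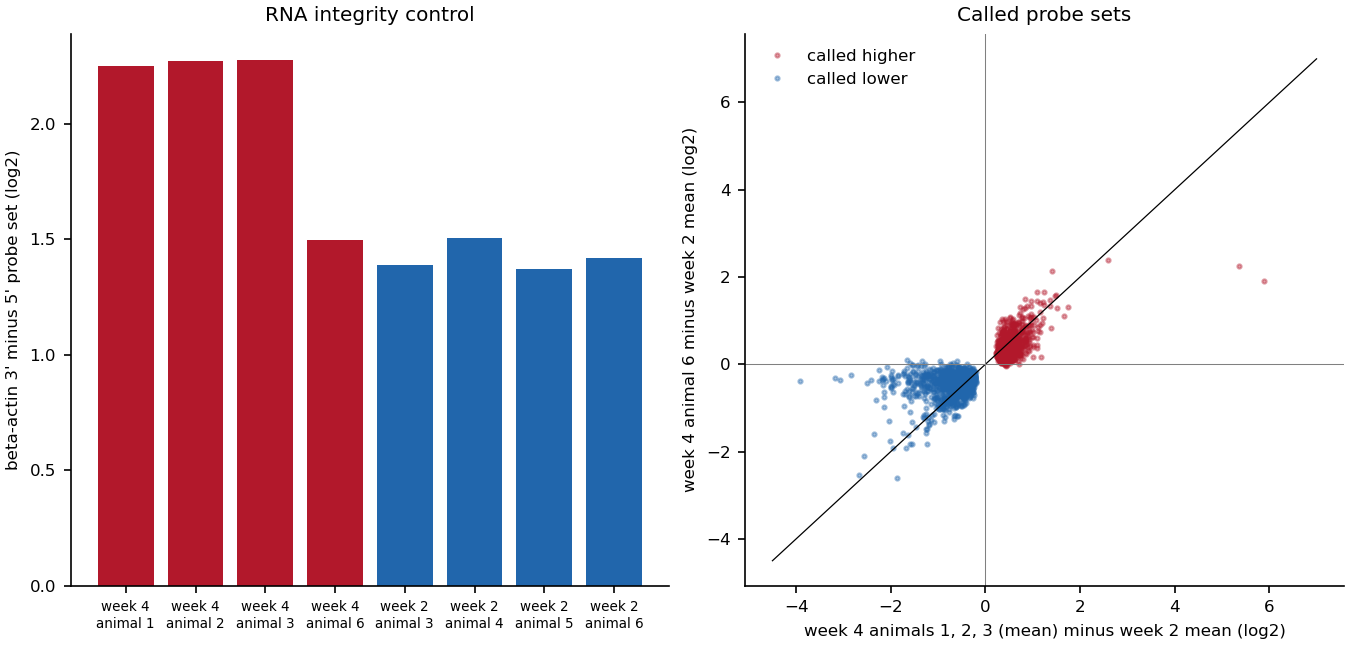
Left, the beta-actin 3 prime minus 5 prime difference (log2) of each array, with week 4 bars at 2.25, 2.27, 2.28 and 1.50 and week 2 bars at 1.37 to 1.51. Right, for each called probe set, the difference from the week 2 mean in week 4 animal 6 (vertical axis) against that in week 4 animals 1, 2 and 3 (horizontal axis), with a line where both are equal. Large falls lie above the line, smaller in animal 6.

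Genes of immature neurons had the highest share of falls among the lists with at least 10 measured genes. Of 32 measured members of a list of 35, 22 were called lower at week 4 and none higher (68.8%, against 5.7% of all genes), with a median log2 difference of -0.52. The surface glycoprotein gene Cd24a had 8.29, 8.81, 8.25 and 8.45 at week 4, against 10.09, 10.18, 9.97 and 10.09 at week 2. Its values at the ages lay more than 1 log2 unit apart, a difference of -1.63 ± 0.31 (SE, adjusted p = 0.0022), or 3.09-fold lower. Marcksl1, which encodes an actin-binding substrate of protein kinase C, had 11.11, 11.29, 11.20 and 11.11 at week 4, against 12.51, 12.44, 12.39 and 12.32 at week 2 (-1.24 ± 0.14, adjusted p = 1.58e-05). The collapsin response mediators Dpysl3 and Dpysl5, which act on the cytoskeleton of growing axons, fell by 1.33 and 1.28. Dpysl5 was almost level at week 4, at 6.90, 6.96, 6.97 and 7.05, against 8.47, 7.86, 8.20 and 8.47 at week 2. Doublecortin, the microtubule protein Dcx of migrating neurons, had 7.61, 7.64, 7.02 and 7.16 at week 4, against 8.37, 8.32, 8.44 and 8.17 at week 2 (-0.97 ± 0.25, adjusted p = 0.0167). These groups did not overlap, as in 17.2% of all genes. For Cd24a, Dpysl3 and Dpysl5, named among the largest falls, the lack of overlap was a condition of the choice. Map1b, a microtubule-associated protein of growing axons, differed by -1.15 ± 0.34 (adjusted p = 0.0322), but week 4 animal 6, at 9.66, lay among the week 2 values of 9.26 to 10.18. The other 16 called members differed by -0.92 (Crmp1) to -0.25 (Stmn3), names chosen after their values were seen. The call count was 17 without week 4 animal 2 and week 2 animal 6, arrays left out after seeing the data, 15 with scan day as a random block, 9 with the actin covariate and 5 with week 4 animal 6 alone. In bulk tissue, fewer cells of a type and less RNA per cell cannot be told apart.

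Of 20 measured genes on a list of neurogenic and SoxC factors, 4 were called by representative probe set, all lower (20%, against 5.7% of all genes). With the scan day block 3 were called lower, and with the actin covariate 3. Sox4, a SoxC factor of newborn neurons, had 9.30, 9.25, 9.24 and 9.52 at week 4, against 10.08, 9.82, 10.14 and 9.93 at week 2 (-0.67 ± 0.09, adjusted p = 0.000142). The proto-oncogene Mycn was also lower in every week 4 animal on its representative probe set (-0.70 ± 0.11, adjusted p = 0.000527), at 7.32 to 7.41, against 7.72 to 8.27 at week 2. Its other tested probe sets, at lower levels, went the other way. They differed by 0.25 (called higher, adjusted p = 0.0454) and 0.28 (adjusted p = 0.114). Sox11, the close relative of Sox4, differed by -0.10 and was not called, a gene chosen after its values were seen. The other called members were Deaf1 (-1.37) and Id3 (-0.59), and Id3 is also on the astrocyte list. Among cytoskeletal genes of the axon 4 of 16 were lower (25%, against 5.7% of all genes). Nefl, the light neurofilament subunit, fell by 0.52 (SE 0.07, adjusted p = 0.00014) to 11.86 to 12.05 at week 4, against 12.41 to 12.56 at week 2.

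Among oligodendrocyte genes more were called higher than lower, and the called precursor genes were all lower. Of 26 measured myelin and oligodendrocyte genes, 10 were called higher (38.5%) and 2 lower (7.69%), with a median of 0.35. Of 11 precursor genes 5 were called lower (45.5%) and none higher, with a median of -0.33. The shares over all genes were 5.61% higher and 5.7% lower. Ndrg1, a gene of myelinating cells, had 9.01, 9.26, 8.93 and 9.16 at week 4, against 7.56, 7.65, 7.73 and 7.36 at week 2, a 2.86-fold rise (1.52 ± 0.16, adjusted p = 1.46e-05). Aspa, the aspartoacylase that splits N-acetylaspartate, had 7.75, 7.74, 7.20 and 7.32 at week 4, against 6.39, 6.78, 6.58 and 5.71 at week 2 (1.14 ± 0.23, adjusted p = 0.00289). Mal, a proteolipid of compact myelin, rose by 1.09 ± 0.20 and Plekhb1 by 1.06 ± 0.16. None of these week 4 values overlapped those of week 2, as in 17.2% of all genes. These genes were among the 15 largest rises, taken only from genes without overlap, so this followed from the choice. Week 4 animal 3 was the lowest of its age for Aspa, Mal, Plekhb1 and Ndrg1. Qdpr, which regenerates the tetrahydrobiopterin cofactor, rose by 0.87 ± 0.10 (adjusted p = 1.62e-05).

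The main structural genes of myelin were not called. Among these members, chosen after their values were seen, Mbp differed by 0.07, Cnp by -0.13, Mag by -0.13, Mog by 0.52 and Mobp by 0.59. The 2 called lower were Sirt2, a deacetylase of tubulin, at 10.70, 10.51, 10.25 and 10.57 at week 4, against 11.43, 11.50, 11.37 and 11.12 at week 2 (-0.85 ± 0.10, adjusted p = 2.59e-05), and Ugt8a, the enzyme of galactocerebroside synthesis (-0.57), named after its values were seen. S1pr5 and Ppp1r14a, both known from oligodendrocytes in mouse brain but not on the list, were among the 15 genes with the largest rise, at 1.05 and 1.02. In the precursor list Vcan, the proteoglycan versican, fell by 0.75, the transcription factor gene Nkx2-2 by 0.61, the kinase gene Fyn by 0.51, Pdgfra, the growth factor receptor that marks precursors, by 0.34 and Ptprz1 by 0.32. Pdgfra was at 8.92, 9.01, 8.68 and 8.83 at week 4, against 9.27, 9.13, 9.16 and 9.23 at week 2. These did not overlap, but its call (adjusted p = 0.0339) was lost without any 1 of 6 arrays. With scan day as a random block 6 myelin genes were called higher and 2 precursor genes lower, and with the actin covariate 4 and 1.

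**Figure D3:**
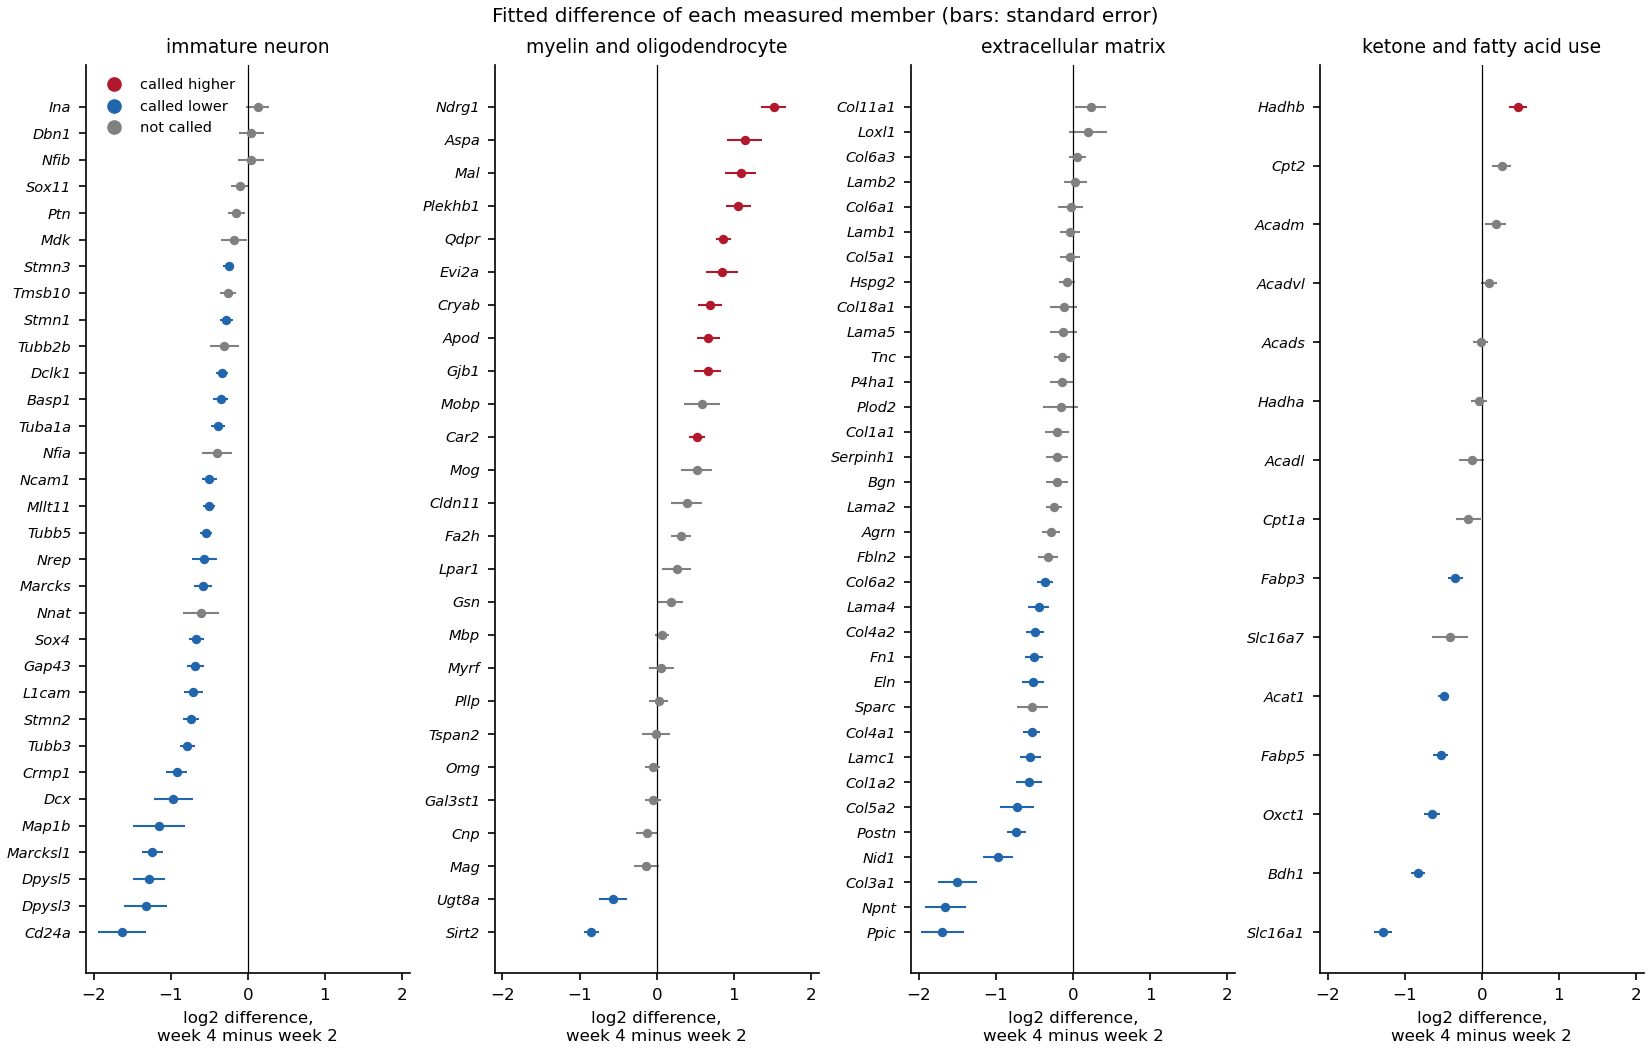
Fitted log2 difference, week 4 minus week 2 (horizontal axis, bars show the standard error), of each measured member of the immature neuron, myelin and oligodendrocyte, extracellular matrix, and ketone and fatty acid lists, coloured by its call. The called immature neuron and matrix genes lie left of 0, and 10 of the 12 called myelin genes lie right of it.

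Among genes of the extracellular matrix every call was lower. Of 34 measured members 14 were called lower and none higher (41.2%, against 5.7% of all genes), with a median of -0.26. Col3a1, a fibrillar collagen, had 6.85, 7.65, 6.57 and 7.27 at week 4, against 9.01, 8.76, 8.53 and 8.02 at week 2 (-1.50 ± 0.26, adjusted p = 0.000903). Npnt, the integrin ligand nephronectin, had 7.87, 7.83, 7.76 and 7.60 at week 4, against 9.39, 9.34, 9.41 and 9.56 at week 2, 3.15-fold lower (-1.66 ± 0.26, adjusted p = 0.000501). Both genes were among the 15 largest falls, which were taken only from called genes without overlap. The basement membrane linker Nid1 fell by 0.97, the matricellular gene Postn by 0.73 and the fibrillar collagen Col5a2 by 0.72. Ppic, a prolyl isomerase of the secretory pathway, fell by 1.69, but 3 of its 4 week 4 values were below the filter value of 4. Without week 4 animal 2 and week 2 animal 6 again 14 members were called lower, with the scan day block 6, with the actin covariate 9 and with week 4 animal 6 alone 1.

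In the matrix around neurons, 5 of 10 measured genes were lower (50%) and 1 higher (10%), against 5.7% and 5.61% of all genes. With the scan day block 2 were called lower and none higher, and with the actin covariate none was called. Beside Vcan and Ptprz1, which it shares with the precursor list, these were the aggrecanase gene Adamts4 (-0.69), the secreted guidance protein reelin, Reln (-0.42), and the proteoglycan brevican, Bcan (-0.38). Hapln2, a hyaluronan link protein of nodes of Ranvier, had 6.46, 5.68, 5.69 and 5.99 at week 4, against 5.08, 5.16, 5.35 and 5.31 at week 2 (0.73 ± 0.21, adjusted p = 0.0262). Its difference was -0.09 when scan day was a fixed effect, so the rise was lost in that fit. Cemip2, a cell surface hyaluronidase, fell by 1.48, to 5.25, 5.18, 5.20 and 5.71 at week 4, against 7.21, 6.73, 6.93 and 6.37 at week 2.

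Markers of vessel and meningeal cells were read beside the matrix genes. Of 23 endothelial genes 4 were lower (17.4%) and 1 higher (4.35%), and of 11 meningeal and fibroblast genes 2 were lower (18.2%). Over all genes 5.7% were lower and 5.61% higher. Of 8 pericyte and smooth muscle genes none was called by limma on its representative probe set (1 at an unadjusted p under 0.05). Rgs5, a pericyte marker, was lower on 2 of its other probe sets (-1.20, adjusted p = 0.0192, and -1.31, adjusted p = 0.0211), while its representative one differed by -0.30 (adjusted p = 0.0889). With the scan day block, and also with the actin covariate, 1 endothelial and 1 meningeal gene were called lower and no pericyte gene was called on its representative probe set. Mean levels of the meningeal list were 6.89 to 7.15 at week 4 and 6.89 to 7.41 at week 2, and those of the pericyte list 7.26 to 7.48 and 7.21 to 7.74. The second meningeal gene beside Igf2 was Dcn, the proteoglycan decorin of fibroblasts, which had 7.10, 7.22, 6.99 and 7.49 at week 4, against 8.11, 8.09, 7.58 and 7.56 at week 2 (-0.63 ± 0.19, adjusted p = 0.0391). In the endothelial list, which also holds Slc16a1, Vwf, the von Willebrand factor, fell by 0.73, Kdr, a receptor of vascular endothelial growth factor, by 0.41, and Ramp2 by 0.39. The part of these cells in the matrix result was not tested.

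In the insulin-like growth factor family 1 of 13 measured genes was called higher (7.69%, near the 5.61% of all genes). Another 3 were called lower (23.1%, against 5.7% of all genes). Igfbp6, a binding protein that prefers IGF2, had 9.05, 8.92, 9.16 and 8.62 at week 4, against 7.25, 7.26, 7.34 and 7.35 at week 2, a 3.11-fold rise (1.64 ± 0.16, adjusted p = 6.69e-06). The lowest week 4 value lay more than 1 log2 unit above the highest at week 2. Igf2, an imprinted fetal growth factor also made by the meninges, had 8.63, 8.92, 8.71 and 8.70 at week 4, against 10.01, 9.66, 9.23 and 9.51 at week 2 (-0.86 ± 0.17, adjusted p = 0.00293). Igf1 fell by 0.84 and Irs1, a docking protein of the receptors, by 0.49. The other 9 of the 13 measured genes were not called, among them the receptors Igf1r (0.07) and Insr (0.18), chosen after their values were seen.

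Of 21 imprinted genes measured, 3 were called lower (14.3%, against 5.7% of all genes) and none higher: Mkrn3, Igf2 and Gnas. Mkrn3, a ubiquitin ligase gene known as a brake on puberty, was at 3.10, 3.00, 3.22 and 3.15 at week 4, against 4.87, 3.96, 5.58 and 5.83 at week 2 (-1.95 ± 0.25, adjusted p = 7.59e-05). All its week 4 values lay below the filter value, where the scale gives little order. Gnas, which encodes the stimulatory G protein subunit, was at 13.74 to 13.85 at week 4, against 14.20 to 14.34 at week 2 (-0.45 ± 0.08, adjusted p = 0.00104). The DNA methyltransferase gene Dnmt3a had 9.06, 9.27, 8.67 and 8.80 at week 4, against 10.18, 10.04, 10.34 and 10.22 at week 2, 2.37-fold lower (-1.25 ± 0.14, adjusted p = 1.52e-05). In its list of 19 measured DNA methylation and Polycomb genes, 2 were called higher (10.5%) and 1 lower (5.26%), against 5.61% and 5.7% of all genes. The 2 higher were the histone methyltransferase Ezh1, by 0.74, and the deacetylase Hdac11, by 0.34. Epop, a partner of the Polycomb complex, was outside the list and rose by 1.52, with 9.96, 9.97, 10.09 and 9.46 at week 4, against 8.11, 8.44, 8.26 and 8.59 at week 2.

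Of 15 measured genes of ketone body and fatty acid use 6 were called lower (40%, against 5.7% of all genes), with a median of -0.17. The 1 called higher (6.67%) was near the 5.61% of all genes. Slc16a1, the monocarboxylate transporter MCT1 that carries ketone bodies and lactate across the vessel wall, had 10.09, 10.24, 9.78 and 10.10 at week 4, against 11.27, 11.39, 11.39 and 11.30 at week 2, 2.43-fold lower (-1.28 ± 0.12, adjusted p = 6.69e-06). Bdh1, which oxidises beta-hydroxybutyrate, had 10.03, 9.89, 9.73 and 9.63 at week 4, against 10.65, 10.73, 10.62 and 10.59 at week 2 (-0.83 ± 0.09, adjusted p = 1.17e-05). In both genes every week 4 animal lay below every week 2 animal. For Slc16a1, named among the largest falls, this was a condition of the choice. The next enzymes of the pathway were lower as well: Oxct1, which attaches coenzyme A to acetoacetate, by -0.65 ± 0.10 and Acat1, the thiolase, by -0.49 ± 0.07. The fatty acid binding protein genes Fabp5 (-0.53) and, named after its values were seen, Fabp3 (-0.35) were called too. Hadhb, a subunit of the mitochondrial beta-oxidation enzyme, rose by 0.47, but its other tested probe set differed by -0.05 (adjusted p = 0.853). Other Oxct1 probe sets differed by -0.80 (called lower), and by -0.19 and -0.17 (neither called). The scan day block and the actin covariate each left 5 called lower.

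Of 24 glycolysis and glucose genes, 7 were called higher (29.2%) and 3 lower (12.5%), with a median of 0.16. The shares over all genes were 5.61% and 5.7%. Pfkl, the liver-type phosphofructokinase, had 10.54, 10.59, 10.49 and 10.06 at week 4, against 9.80, 9.95, 9.69 and 9.90 at week 2 (0.59 ± 0.12, adjusted p = 0.00367). Slc2a1, the glucose transporter of the blood-brain barrier, had 10.53, 10.30, 10.68 and 10.73 at week 4, against 9.94, 10.03, 10.07 and 10.22 at week 2 (0.50 ± 0.16, adjusted p = 0.0463). Its difference was -0.01 when scan day was a fixed effect. The neuronal glucose transporter Slc2a3 and the pyruvate dehydrogenase subunit Pdha1 each fell by 0.34, and the kinases Pfkfb3 and Pdk2, which regulate glycolysis and pyruvate dehydrogenase, rose by 0.46 and 0.44. Leaving out week 4 animal 2 and week 2 animal 6 gave 2 higher and 2 lower, the scan day block 1 and 1, and the actin covariate none higher and 3 lower.

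Interneuron markers went both ways, 2 higher (11.1%) and 3 lower (16.7%) of 18, against 5.61% and 5.7% of all genes. The scan day block left 1 higher and 2 lower, and the actin covariate none. Pvalb, the calcium buffer parvalbumin of fast-spiking interneurons, had 9.18, 8.94, 8.97 and 8.48 at week 4, against 7.52, 7.60, 7.98 and 7.44 at week 2, 2.39-fold higher (1.26 ± 0.19, adjusted p = 0.000321). Gad1, which makes GABA, rose by 0.43 (adjusted p = 0.0476), a call lost without any 1 of 7 arrays. Its other probe set was not called (-0.17, adjusted p = 0.646). Calb2, the calretinin gene, had 7.27, 7.93, 7.35 and 8.10 at week 4, against 8.62, 8.61, 8.83 and 8.85 at week 2 (-1.06 ± 0.32, adjusted p = 0.0382), and Dlx1, a transcription factor of interneuron development, fell by 0.67. Reln was the third that fell. The Calb2 call was lost without any 1 of 7 arrays. Sst, Npy and Vip, chosen after their values were seen, differed by -0.02, -0.03 and 0.39 and were not called.

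Of 32 synaptic vesicle genes 4 were called higher (12.5%) and 3 lower (9.38%), against 5.61% and 5.7% of all genes. With the scan day block 1 was called, lower, and with the actin covariate none. Of 33 potassium channel genes 2 were higher and 2 lower (6.06% each), near the background. The fast calcium sensor Syt2 rose by 0.71 (SE 0.15, adjusted p = 0.00539). Its lowest week 4 value, 6.42, lay above its highest week 2 value, 6.15. The fusion protein genes Syt4, Vamp1 and Snap25 rose by 0.47, 0.43 and 0.42. Among the 3 vesicle genes called lower, Syn2 differed by -0.62 and Syngr3 by -0.39. The calls of Syt4, Syn2, Vamp1 and Snap25 were lost without any 1 of 6, 5, 3 and 3 arrays. Cacnb4, a calcium channel subunit, had 11.02, 11.03, 10.99 and 10.98 at week 4, against 10.41, 9.75, 10.26 and 10.51 at week 2 (0.77 ± 0.16, adjusted p = 0.00395). The other tested Cacnb4 probe set, at a lower level, differed by -0.58 (adjusted p = 0.163), and the Cacnb4 call was lost with the actin covariate. Scn1a, the sodium channel of fast-spiking cells, rose by 0.49 and Kcnip1, a potassium channel partner, fell by 0.71. The cell adhesion gene Cdh13 had 8.43, 8.48, 8.50 and 8.33 at week 4, against 9.53, 9.47, 9.14 and 9.26 at week 2 (-0.92 ± 0.15, adjusted p = 0.000496).

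Some called genes, among them a receptor subunit and a scaffold, fell mainly in the 3 week 4 animals of high actin difference. In the GABA receptor list 1 of 9 genes was lower, Gabra2, and 1 higher, Gabrd (11.1% each). In the postsynaptic list 2 of 20 were lower (10%) and none higher. Among ionotropic glutamate receptor genes 2 of 16 were lower (12.5%) and 1 higher (6.25%). The shares over all genes were 5.7% lower and 5.61% higher. Gabra2, the alpha2 subunit of the GABA-A receptor, had 7.91, 7.67 and 8.68 in animals 1, 2 and 3 and 9.04 in animal 6, against 8.80 to 9.21 at week 2 (-0.69 ± 0.21, adjusted p = 0.0395). Dlg4, the postsynaptic scaffold PSD-95, had 8.20, 7.85, 8.52 and 9.21 at week 4, against 9.21, 9.50, 9.53 and 9.69 at week 2 (-1.04 ± 0.33, adjusted p = 0.0475). The other tested Dlg4 probe set differed by 0.02 (adjusted p = 0.951), and the Dlg4 call was lost without any 1 of 7 arrays. With the actin covariate the Dlg4 difference was 0.09, and with week 4 animal 6 alone that of Gabra2 was 0.02, so neither fall remained there. The mitochondrial fusion gene Opa1 and the kinase gene Gsk3b, among the 15 largest falls at -1.29 and -1.40, were at 8.14 and 7.01 in animal 6, above the 6.29 to 7.29 and 6.08 to 6.19 of the other week 4 animals. Tmod2, a neuronal capping protein of actin filaments, and the lysosomal gene Tmem106b, with differences of -1.25 and -1.62, showed the same order, with 8.74 and 5.11 in animal 6.

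Of 28 astrocyte genes 3 were called higher (10.7%) and 2 lower (7.14%), against 5.61% and 5.7% of all genes. Counting any probe set of a gene gave 3 higher and 6 lower. By representative probe set the 2 lower were Id3 (-0.59) and Sparcl1 (-0.23). The scan day block left 2 higher and none lower, and the actin covariate none. Clu, the secreted chaperone clusterin, had 14.71, 14.58, 14.41 and 14.39 at week 4, against 13.86, 14.01, 13.84 and 13.88 at week 2 (0.62 ± 0.10, adjusted p = 0.000647), and S100b rose by 0.58. Of 18 microglia and complement genes 2 were lower and 2 higher (11.1% each), and 1, lower, was called with the scan day block and 1, lower, with the actin covariate. P2ry12, the purinergic receptor of resting microglia, had 7.69, 7.21, 7.53 and 8.10 at week 4, against 8.64, 8.88, 8.58 and 8.49 at week 2 (-1.02 ± 0.13, adjusted p = 8.3e-05). Cd53 fell by 0.58, while the complement gene C1qb rose by 0.44 and Aif1 by 0.32.

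Of 13 genes of antigen presentation and interferon response, 4 were higher (30.8%, against 5.61% of all genes) and none lower, with a median of 0.27. Ifit3, an interferon-induced antiviral protein, had 6.18, 6.24, 6.52 and 6.18 at week 4, against 5.37, 5.34, 5.85 and 5.73 at week 2 (0.71 ± 0.19, adjusted p = 0.0201). Ifitm3, a membrane protein that blocks virus entry, had 8.82, 8.93, 8.64 and 8.78 at week 4, against 8.40, 8.23, 8.22 and 7.92 at week 2 (0.60 ± 0.12, adjusted p = 0.00403). Il33, an alarmin of oligodendrocytes and astrocytes, rose by 0.70 and the transcription factor Irf1 by 0.46. No value overlapped between the ages in these 4 genes, as in 17.2% of all genes. Neither with scan day as a random block nor with the actin covariate was any of the 4 called (adjusted p of 0.057 or more), and 2 were without week 4 animal 2 and week 2 animal 6. Of 60 heat shock and chaperonin genes 5 were higher by representative probe set (8.33%, near the 5.61% of all genes) and none lower, while counting any probe set of a gene gave 7 higher and 2 lower. The scan day block left 3 higher and the actin covariate 1. Hspa1b, an inducible HSP70, had 7.64, 7.47, 7.89 and 7.70 at week 4, against 6.54, 6.95, 7.01 and 6.91 at week 2 (0.82 ± 0.12, adjusted p = 0.00024), and Hsph1, of the HSP110 family, rose by 0.34.

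The promoters of these genes were read from RefSeq (GRCm38.p6), which held windows for 8 of the 9, each of 300 bases from 250 before to 50 after the start, to show whether the windows of the called genes hold known response elements. The interferon-stimulated response element was searched as GAAANNGAAA, the gamma-activated site as TTCNNNGAA and the heat shock element as GAANNTTCNNGAA, on both strands. Of all 32851 windows 3.44% held the first, 8.3% the second and 0.603% the third. In the sequences below the capitals mark these matches.
Ifit3, chr19:34583279-34583578 (+ strand): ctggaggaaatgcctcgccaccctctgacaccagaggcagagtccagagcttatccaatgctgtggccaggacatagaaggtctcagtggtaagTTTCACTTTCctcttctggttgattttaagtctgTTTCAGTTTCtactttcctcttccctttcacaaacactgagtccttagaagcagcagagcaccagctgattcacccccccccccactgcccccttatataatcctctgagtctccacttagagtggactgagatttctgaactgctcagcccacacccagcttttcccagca
Ifitm3, chr7:141010695-141010994 (- strand): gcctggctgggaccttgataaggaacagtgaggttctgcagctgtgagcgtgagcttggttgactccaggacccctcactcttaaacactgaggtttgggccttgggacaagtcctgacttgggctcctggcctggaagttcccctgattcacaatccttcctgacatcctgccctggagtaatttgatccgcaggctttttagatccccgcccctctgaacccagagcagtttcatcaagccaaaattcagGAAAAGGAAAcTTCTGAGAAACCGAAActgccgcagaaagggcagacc
Irf1, chr11:53769764-53770063 (+ strand): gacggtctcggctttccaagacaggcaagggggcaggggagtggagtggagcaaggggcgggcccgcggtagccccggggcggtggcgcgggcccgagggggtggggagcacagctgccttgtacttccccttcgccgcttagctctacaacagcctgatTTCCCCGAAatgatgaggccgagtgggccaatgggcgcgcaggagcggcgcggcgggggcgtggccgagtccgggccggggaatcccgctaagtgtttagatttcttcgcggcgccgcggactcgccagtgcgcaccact
Hsph1, chr5:149636266-149636565 (- strand): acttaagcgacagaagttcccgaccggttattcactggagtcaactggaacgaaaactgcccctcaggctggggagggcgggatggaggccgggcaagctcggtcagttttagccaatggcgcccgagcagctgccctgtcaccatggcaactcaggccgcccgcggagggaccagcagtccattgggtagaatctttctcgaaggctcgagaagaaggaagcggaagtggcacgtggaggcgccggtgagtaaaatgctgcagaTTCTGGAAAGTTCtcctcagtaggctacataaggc
Ifit3 held 2 interferon-stimulated elements, at bases 95 to 104 and 129 to 138 on the reverse strand. Ifitm3 held 2, at bases 253 to 262 and 270 to 279, and a gamma-activated site at 264 to 272 that overlaps the second. The window of Irf1 shown, 1 of 2, held a gamma-activated site at 161 to 169, and the Hsph1 window, 1 of 2, a heat shock element at 266 to 278 on the reverse strand. The windows of Il33, Hspa1b, Dnajb2 and Dnajc21 held none of the letters searched for their group. A match describes letters, not binding.

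**Figure D4:**
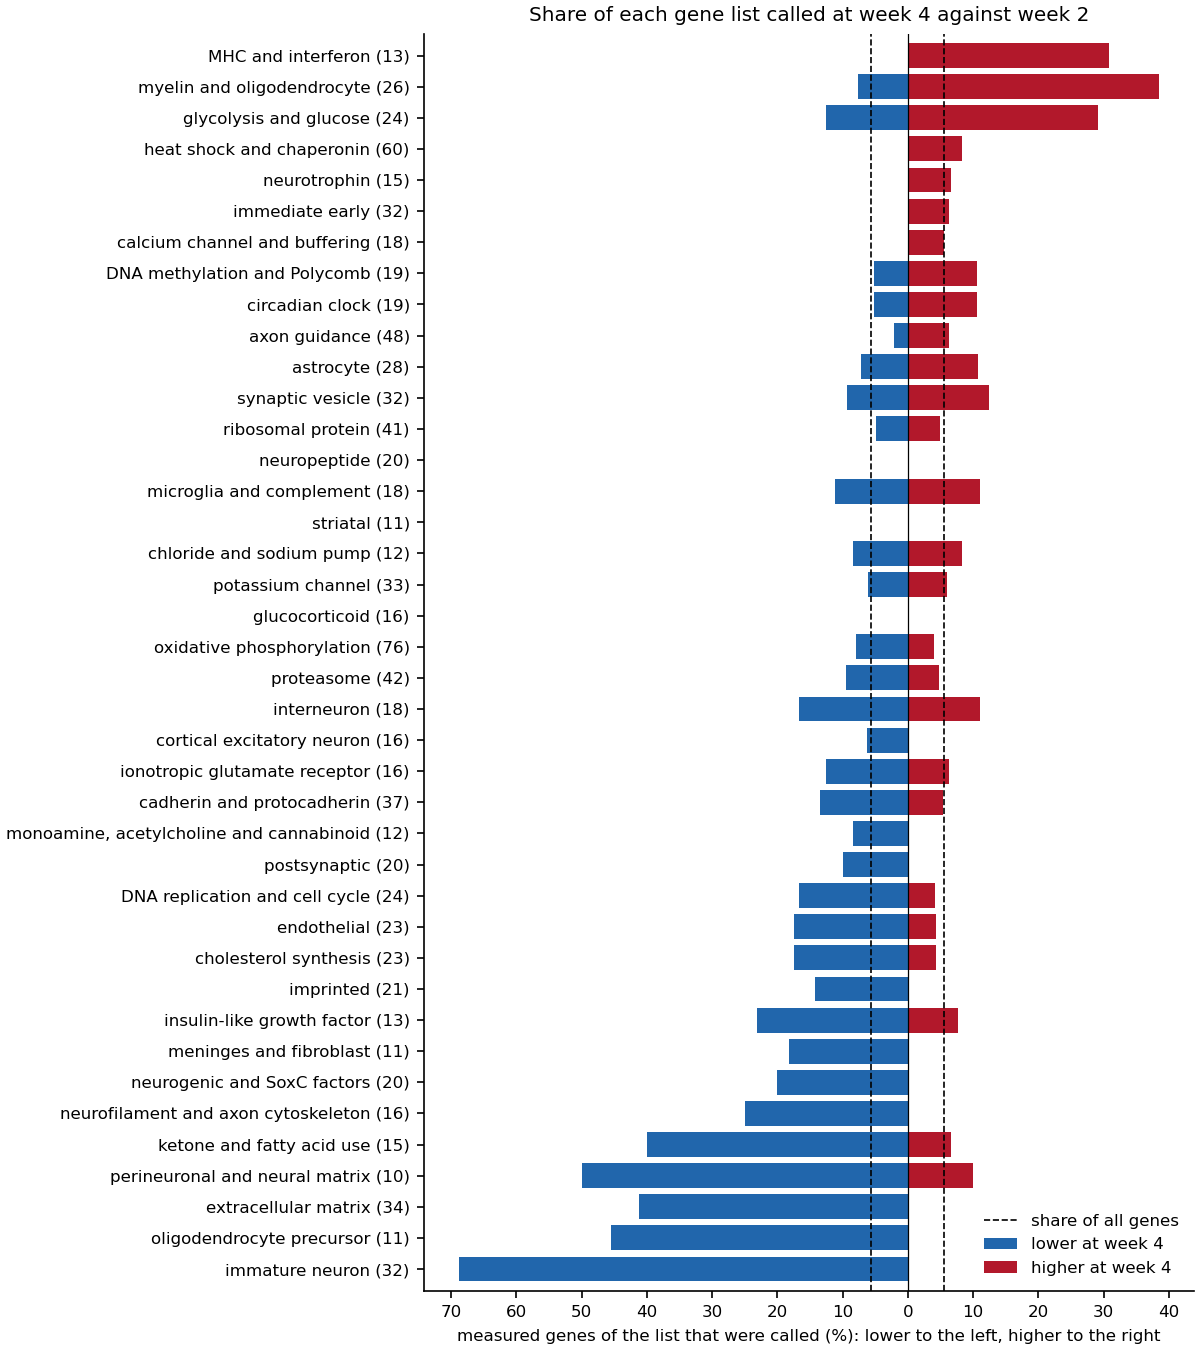
Share of the measured genes (number in brackets) of each list with at least 10 that were called lower (to the left) or higher (to the right) at week 4, in percent. Dashed lines mark the shares over all genes, 5.7% lower and 5.61% higher. The immature neuron list reaches 68.8% lower and the myelin list 38.5% higher.

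By representative probe set, limma called none of 5 blood, 3 choroid plexus, 11 striatal, 16 glucocorticoid-linked and 20 neuropeptide genes. On other probe sets, named after their values were seen, Arpp21 of the striatal list was lower (-0.58, adjusted p = 0.00126), as was Nr3c1, the glucocorticoid receptor gene (-1.72, adjusted p = 0.0458). Of 7 genes of the olfactory bulb and other regions 1 was lower, Cbln1, a cerebellin precursor (-0.92 ± 0.25, adjusted p = 0.0203), and of 4 pituitary genes 1 was higher, Gh. At an unadjusted p under 0.05 there were 3 glucocorticoid-linked genes, 1 choroid plexus gene and none of the blood, striatal and neuropeptide lists. Respiratory, proteasome and ribosomal genes were near the background, with 3 higher and 6 lower of 76 oxidative phosphorylation genes, 2 and 4 of 42 proteasome genes, and 2 and 2 of 41 ribosomal protein genes. Of 23 genes of cholesterol synthesis 4 were lower (17.4%) and 1 higher (4.35%), against 5.7% and 5.61% of all genes. Sqle, the squalene epoxidase, fell by 0.47. None of these 23 was called with the scan day block, and 1, lower, with the actin covariate.

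Single genes with large changes lay outside these groups. Cxadr, a cell adhesion protein known as the coxsackievirus and adenovirus receptor, had 5.79, 5.71, 6.38 and 6.21 at week 4, against 7.69, 7.84, 7.82 and 8.53 at week 2, 3.86-fold lower (-1.95 ± 0.28, adjusted p = 0.000227). Arhgef25 had 10.62, 10.42, 10.56 and 10.27 at week 4, against 9.32, 9.44, 9.43 and 9.48 at week 2 (1.05 ± 0.10, adjusted p = 6.69e-06). Both genes were among the 15 largest changes of their direction. Those were taken only from called genes without overlap, so the separation was a condition of the choice. Gcnt2, a glycosyltransferase, and Efhd1, a mitochondrial calcium-binding protein, each rose by 1.18, 2010204K13Rik by 1.16 and the cyclic AMP phosphodiesterase gene Pde8a by 1.10. Gh had the largest fitted rise, 4.89 ± 1.57 (adjusted p = 0.0476), with 7.31, 15.48, 5.18 and 5.35 at week 4, against 3.22, 3.87, 3.20 and 3.46 at week 2. The week 2 values were all below the filter value, and the call was lost without week 4 animal 2 or any 1 of 5 other arrays.

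**Figure D5:**
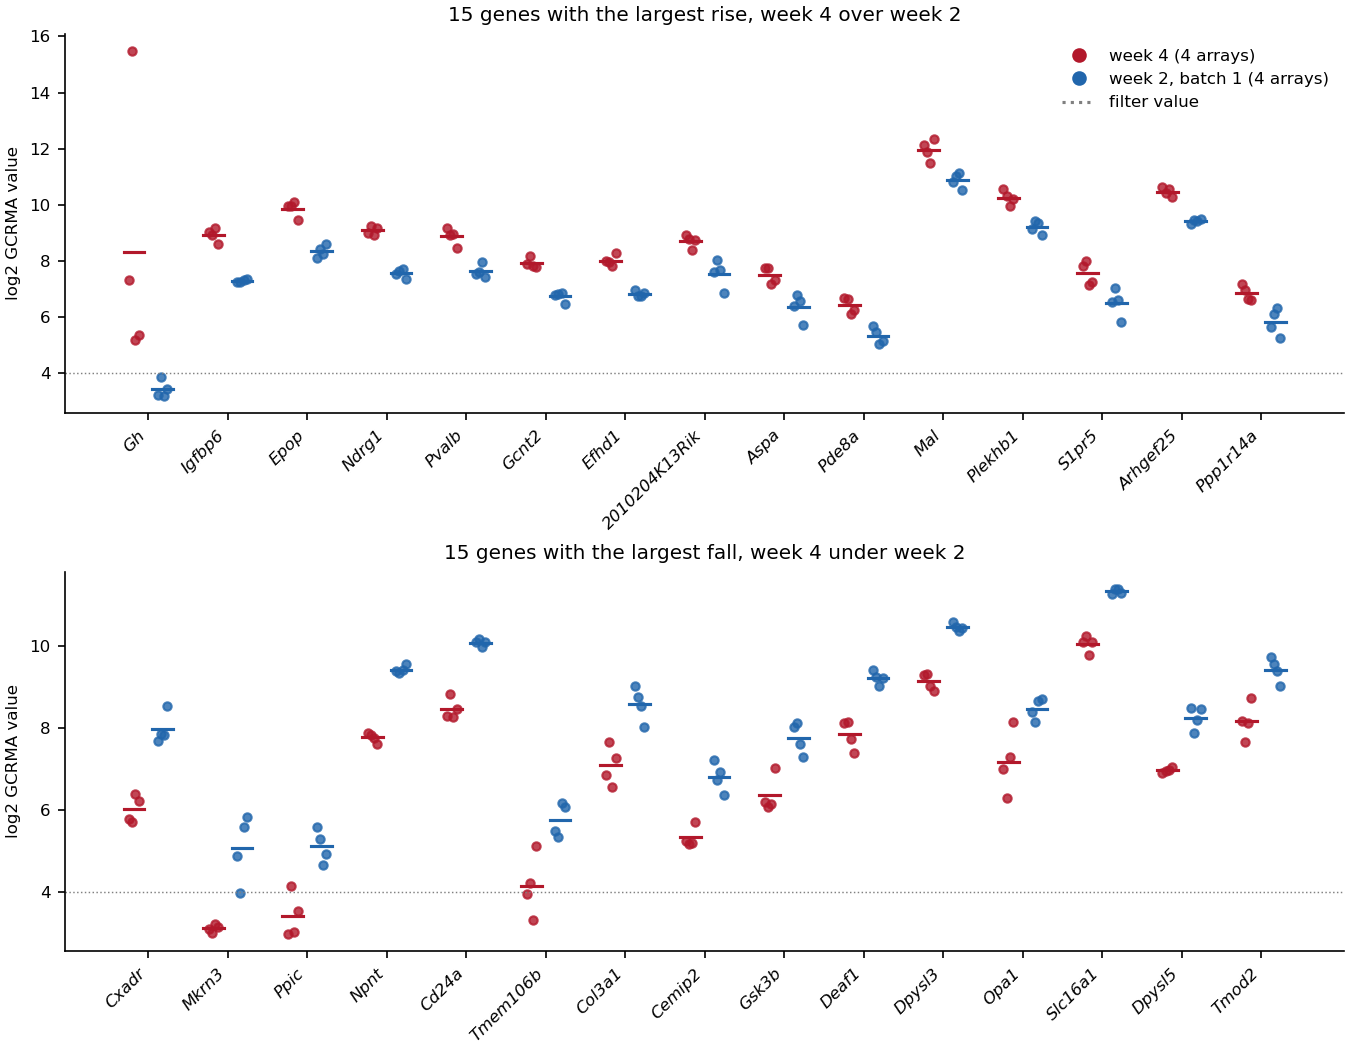
Log2 values (vertical axis) of the 15 genes with the largest rise and the 15 with the largest fall, with a point for each array, week 4 in red on the left and week 2 in blue on the right of each gene. Lines show group means and the dotted line the filter value of 4. Opa1, Gsk3b and Tmod2 have 1 week 4 point, animal 6, nearer the week 2 points than the others.

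Of the 161 named genes that were called, 90 stayed called when any 1 of the 8 arrays was left out. With scan day as a random block 69 stayed called, and with the actin covariate 44. When scan day was a fixed effect and week 3 was left out, 16 did. That last fit separates week 4 from its scan day only through 1 array, of week 5 in batch 2, so its calls lean on that array. The 11 called under all 4 were the lower genes Slc16a1, Bdh1, Marcksl1, Sox4, Igf2, Mkrn3 and Cdh13 and the higher genes Igfbp6, Epop, Arhgef25 and Gcnt2. Of the 15 top rises 13 and of the 15 top falls 11 were called with the random block, and 8 and 6 with the covariate. Probe sets of 1 gene differed: of 496 called genes with more than 1 tested probe set, 162 had another called the same way, 5 had another called only the opposite way, and 329 had no other called.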

How the data were processed

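The deposited table held log2 expression values of 22690 probe sets on 23 arrays, made by the authors with GCRMA per the submitters' processing notes (version not given in the sources used here). GCRMA adjusts background, normalises quantiles between arrays and summarises probe sets. The values were used as deposited. The other deposited files, scanner records of each array, gave the scan day and chip lot, and their entries carried no expression measure. Groups followed the titles. The array titled week 2, batch 1, animal 5 is described elsewhere in its labels as batch 2, and its title was used.

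Of 22626 probe sets that were not controls, the 16103 (71.2%) with a log2 value of at least 4 on at least 4 arrays were tested. Symbols came from the platform annotation, updated through RefSeq: 20393 probe sets had 1 symbol, 691 several and 1606 none. For each of 9198 genes a single representative probe set, that of highest average on the 23 arrays, was counted.

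The model, fitted to the 23 arrays with limma (version 3.58.1, R version 4.3.3; lmFit and eBayes), had 7 means of age and batch, and two-sided p-values were adjusted by Benjamini-Hochberg over all tested probe sets and called under 0.05. The method was tested on simulated data. SE is the standard error of a fitted difference and SD the spread between animals. With arrays, precision is limited by the number of animals.

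The samples and the 49 gene lists were chosen with earlier results of these data known, and 4 list patterns were narrowed after the files were read. Named genes were the 15 with the largest rise and fall among called genes without overlap, and up to 6 called members of each list, or 2 where none was called. Alternatives covered scan day, batch labels, RNA integrity, scaling, filters, limma settings and single arrays.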

Additional observations from a re-analysis of the deposited data

Results flagged for a closer look

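In groups of 4 arrays, 1 array lay far from the other 3 in 19 of 356 groups looked at, and chance alone gives about 1 in 20. In week 4 animal 6 the actin 3 prime minus 5 prime difference was 1.50, and the values of Cemip2 (5.71), Gsk3b (7.01), Acta2 (8.51) and Psmc5 (11.02) stood alone. Week 2 animal 6 stood alone for the striatal genes Penk (9.80) and Arpp21 (11.38), and for Cenpa (4.26), Il33 (5.22) and Grm8 (6.67). Week 4 animal 2 did so for Cux1 (7.87) and Oxct1 (12.18), animal 1 for Scn1a (10.50) and Fgf1 (8.83), and animal 3 for C1qb (9.64). At week 2 the lone arrays were animal 4 for Slc25a37 (8.71) and Klf9 (11.97), animal 3 for Syngr3 (10.08) and animal 5 for Rpl37 (8.91).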

How the results depend on the processing

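In the alternatives run, every called probe set that was still tested kept its direction, except that 98.1% did with scan day as a fixed effect, 98.5% with the actin covariate and 99.3% with week 4 animal 6 alone. Calls numbered 1170 (431 higher, 739 lower) with week 2 animal 5 in batch 2, 488 (167, 321) with scan day as a random block, 1093 (403, 690) with that block and ages only, 103 (34, 69) with the fixed effect of scan day and no week 3, 328 (86, 242) with the actin covariate, and 3544 (1616, 1928) with array weights. Centring on the median gave 1444 higher. At least 1.5-fold changes numbered 743 and 2-fold changes 191. Leaving out 1 array gave 1150 to 2219 calls, 461 to 925 higher and 685 to 1294 lower, with the lowest total without week 4 animal 2 and the highest without week 4 animal 6. Chosen after seeing the data, week 4 animal 6 alone, assumed to vary like the other groups, gave 121 (50, 71), and leaving out week 4 animal 2 and week 2 animal 6 gave 1139 (454, 685). The animal number as a replicate block gave 823 (253, 570). Numbers 3 and 6, shared by both ages, had deviations that correlated by -0.186 and 0.302, against -0.399 to 0.36 in other pairs, so the numbers were not taken to pair animals. The sign turned for Mfge8 (-0.0089) and Gabra2 (0.0171) with week 4 animal 6 alone, and for Dlg4 (0.0884) with the actin covariate. With scan day fixed it turned for Slc2a1 (-0.0147) and Hapln2 (-0.0945). Each of these differences was small, so the change was lost rather than clearly reversed. Except where fewer arrays or genes enter by construction, the cause was not tested. Probe sets near the filter value are limited by background, and scan day and age cannot be told apart within the 8 arrays.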

Other observations

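Probe sets of Ighm, the heavy chain of immunoglobulin M, were singled out after their values were seen. One stood at 7.76, 7.54, 7.55 and 7.42 at week 4, against 5.15, 4.33, 5.40 and 5.20 at week 2. Another was at 6.63, 6.72, 6.61 and 6.87 at week 4, against 5.15, 5.38, 5.49 and 5.72 at week 2. In both the ages did not overlap. A further probe set of the gene overlapped between the ages, at 6.88 to 6.97 at week 4 and 6.81 to 7.22 at week 2.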
